A study of Homo sapiens with 49 samples.

Results

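RIVA and U2932, 2 lymphoma lines that are commonly counted in the activated B-cell (ABC) type, were compared in the absence of drug with FARAGE, NU-DHL-1, OCI-Ly7 and SU-DHL-5, 4 lines commonly counted in the germinal centre B-cell (GCB) type of diffuse large B-cell lymphoma. The type of each line was taken from the literature, because the labels name the line and not its type. Of the 49 arrays of the series, the 18 of cells that had received no doxorubicin and were harvested at 0, 2 or 12 h were used, 6 from ABC-type and 12 from GCB-type lines. All cells were grown in RPMI medium with fetal bovine serum, and total RNA was hybridised to an oligonucleotide array with 54675 probe sets. The 3 arrays of a line were averaged, so that a line, which stands for 1 tumour, was the replicate and the comparison was 2 lines against 4. The labels name no repeated culture of a line, and a p-value therefore measures only the spread between these lines. Doxorubicin-treated arrays were used only where they are named.

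Diffuse large B-cell lymphoma arises from mature B cells, and its 2 main expression types are named after the B-cell stage that their messenger RNA resembles. The GCB type resembles the germinal centre B cell, in which the repressor BCL6 holds back differentiation while the antibody genes are mutated and selected. The ABC type resembles an activated B cell on the way to a plasma cell. It is known for chronic signalling from the B-cell receptor and MYD88 to NF-kB, and for high IRF4.

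Values are deposited log2 intensities, on which a difference of 1 is 2-fold. They have no absolute unit, so that differences are taken between lines for the same gene. The 18 arrays had medians between 4.85 and 4.92 over all probe sets. The median of 19775 genes over all arrays was 5.83, which serves below only as a rough guide to what is dim, since probe sets differ in their response. The lines carried B-cell messenger RNA: the mean level of 8 measured B-cell markers lay between 10.30 and 10.90 in every line, and all 8 were above the median gene in at least 1 line. The mean level of 9 myeloid markers lay between 3.89 and 4.16, and 0 of them exceeded the median gene in any line. The mean of 9 T-cell markers lay between 4.45 and 4.69, and 2 of them exceeded the median gene in at least 1 line, as did 2 of 6 fibroblast and 2 of 4 erythroid markers.

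The genes called between the classes were higher in both ABC-type lines and dim in all 4 GCB-type lines, and most are not classical genes of either type. In limma's moderated test on the 6 line means, with Benjamini-Hochberg adjustment over all 19775 genes, 29 genes were higher in the ABC-type lines at an adjusted p below 0.05, which is 0.147% of the genes tested. No gene was called lower (0%), although 565 genes lay on each side at an unadjusted p below 0.05. The smallest adjusted p on the lower side was 0.0899, for TTC9. All 29 called genes had GCB-type means between 2.53 and 5.33, below the median gene, and ABC-type means between 4.24 and 9.61. The test takes most of its spread from the 4 GCB-type lines, so it favours genes that vary little there. The standard deviation among those lines was 0.05 for ELOVL7, 0.11 for DAZL and 0.55 for TUBB2B, all called. It was 3.41 for BCL2, whose difference of 5.63 was not called. The counts of 29 and 0 therefore cannot decide whether more genes are higher or lower in the ABC-type lines. How far low levels produced these calls was not tested. Leaving out a line moved the count by over 1.5 times in every case. It was 116 without RIVA, 150 without U2932, 18 without FARAGE, 18 without NU-DHL-1, 14 without OCI-Ly7 and 14 without SU-DHL-5, and the difference of each of the 29 genes stayed positive.

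The gene with the largest called difference was DAZL, an RNA-binding protein of germ cells. Its mean was 10.03 in RIVA and 8.21 in U2932, against 2.82 in FARAGE, 2.66 in NU-DHL-1, 2.64 in OCI-Ly7 and 2.55 in SU-DHL-5. The lowest ABC-type line was thus 5.39 above the highest GCB-type line, and the difference between class means was 6.45 ± 0.48 (limma standard error, adjusted p = 0.0153, n = 2 and 4 lines). With any 1 of the 4 GCB-type lines left out the limma adjusted p of DAZL was between 0.0704 and 0.102. DAZL was as distinct at single times: RIVA read 9.89, 9.92 and 10.27 at 0, 2 and 12 h, while the highest of the 12 GCB-type arrays read 2.995.

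EPCAM, an adhesion molecule of epithelial cells, read 9.04 in RIVA and 9.66 in U2932 and between 2.79 and 3.37 in the GCB-type lines. Its difference was 6.36 ± 0.25 (limma adjusted p = 0.00144). EPCAM was the 1 called gene of a list of 6 epithelial markers. The other markers did not separate the classes: KRT8 ran from 4.81 to 5.28, KRT18 from 5.22 to 5.53, KRT19 from 3.90 to 4.17, CDH1 from 3.43 to 3.75 and KRT5 from 4.36 to 4.86 over the 6 lines. The keratins and E-cadherin (CDH1) were thus below the median gene in the lines with high EPCAM.

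The smallest adjusted p of all genes, 8.98e-04, belonged to RAVER2, an RNA-binding protein. RAVER2 read 7.28 in RIVA and 7.23 in U2932 and between 2.43 and 2.79 in the GCB-type lines, a difference of 4.66 ± 0.13. CYB5R2, a cytochrome b5 reductase used in published ABC gene sets, read 9.25 in RIVA, 8.19 in U2932, 3.22 in FARAGE, 4.14 in NU-DHL-1, 3.67 in OCI-Ly7 and 3.49 in SU-DHL-5. It was the only called gene among the 28 measured ABC-type markers, with a difference of 5.09 ± 0.38 (limma adjusted p = 0.0153, and 0.0694 to 0.105 without FARAGE, OCI-Ly7 or SU-DHL-5). ZSCAN18, a zinc finger protein, read 9.17 and 8.55 in the ABC-type lines and between 4.04 and 4.33 in the others. Of its 3 probe sets, 2 had this direction.

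Among the other genes of the 15 largest called differences were cytoskeletal and membrane proteins, among them TUBB2B, a beta-tubulin known from neurons (5.88), ASAP2, a regulator of Arf GTPases (4.99), EPB41L4B, a FERM-domain protein (4.54), and AMOTL1, an angiomotin-like protein of cell junctions (4.12). Values in parentheses are ABC-type minus GCB-type log2 differences. Others were the transcribed pseudogene ZNF542P (5.11), BEX4 (4.75), the folliculin partner FNIP2 (4.67), C3orf70 (4.44), the interleukin-25 receptor IL17RB (4.26) and the fatty acid elongase ELOVL7 (4.25). A related elongase, ELOVL2, was also called (3.10), and so was a further beta-tubulin, TUBB6 (2.77). TUBB2B, BEX4, EPB41L4B and C3orf70 lost their call without any 1 of the GCB-type lines (limma adjusted p from 0.0600 to 0.176), and IL17RB without OCI-Ly7 (0.0591) or SU-DHL-5 (0.0738). No line overlapped with the other class in any of the 29 genes. Of these genes 12 had 1 probe set and 17 had several, and in 15 of the 17 all probe sets differed in the same direction.

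**Figure D1:**
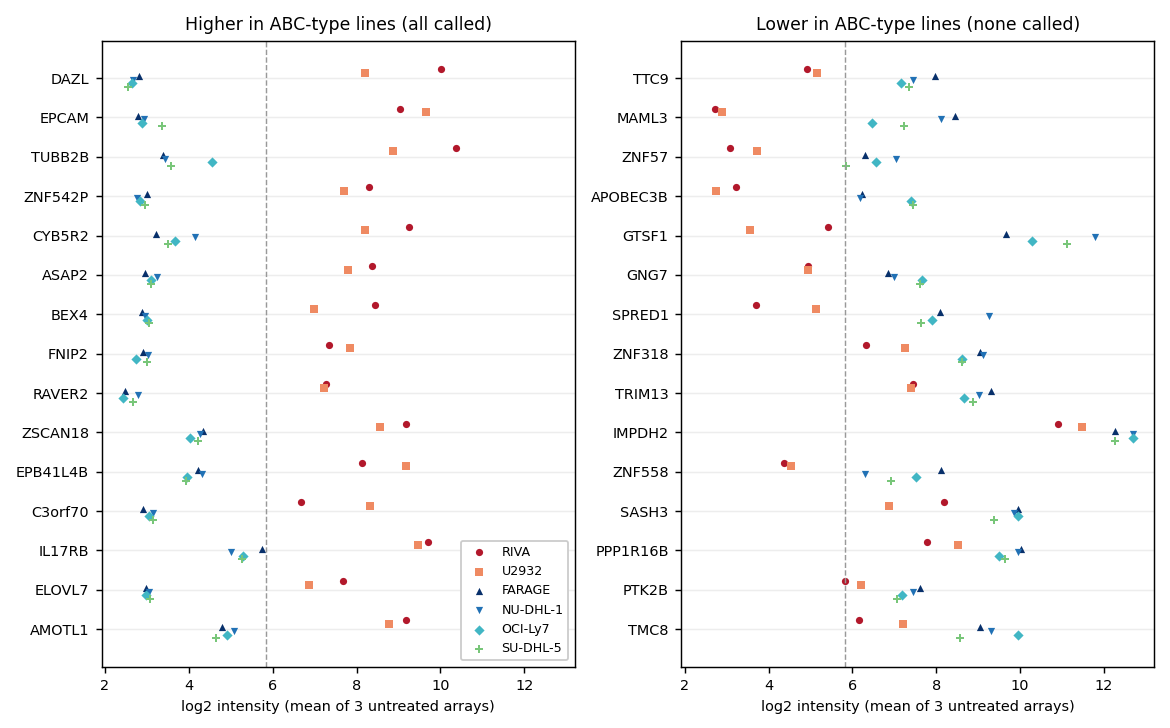
Mean log2 intensity of 3 untreated arrays in each of the 6 lines (symbols), for the 15 largest called differences on the left and, on the right, the 15 genes lower in ABC-type lines with the smallest p among those that separate the classes. The dashed line is the median gene at 5.83. On the left, all 4 GCB-type lines lie to the left of the dashed line, and on the right the 2 ABC-type lines lie to the left of the 4 others.

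The reference sequence before the starts of the called genes was also examined. A start was found for 21 of the 29 called genes in the RefSeq table of GRCh38.p14. Only the first listed start of a gene was taken, so that a window can lie inside the gene's full span, as for CYB5R2 and AMOTL1. The 250 bases before the start were rich in CpG, the dinucleotide at which mammalian DNA is methylated. A called gene's window held a median of 32 CpG (range 8 to 52), and the windows of the 15384 tested genes with a start held a median of 18. At least 10 CpG were present in 95.2% of the called genes' windows and in 69.2% of all windows. Of the 29 called genes, 27 had a class mean above the median gene, whereas all windows include those of dim genes. No background of genes at a similar level was taken. The contrast therefore cannot show that the CpG density is particular to the called genes. The STAT motif TTCNNNGAA, searched on both strands, was found in 1 of the 21 windows (4.76%, against 6.03% of all), and the NF-kB consensus in 1 (4.76%, against 11.1%). These are letters of the reference genome and not of these cells, and neither methylation nor binding was measured.

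The windows of 4 called genes are shown, 5′ to 3′ on the strand of the gene, because they carry the CpG density described. CpG is in capitals. DAZL lies on the minus strand (chr3:16605424-16605673), RAVER2 on the plus strand (chr1:64744825-64745074), CYB5R2 on the minus strand (chr11:7673501-7673750) and ZSCAN18 on the minus strand (chr19:58118405-58118654). The windows hold 28, 33, 32 and 27 CpG in that order.
DAZL: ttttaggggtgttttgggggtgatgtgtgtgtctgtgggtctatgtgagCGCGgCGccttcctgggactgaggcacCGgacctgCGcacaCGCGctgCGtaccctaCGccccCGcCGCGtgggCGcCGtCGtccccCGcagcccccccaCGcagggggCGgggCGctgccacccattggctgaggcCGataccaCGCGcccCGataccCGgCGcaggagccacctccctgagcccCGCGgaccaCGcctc
RAVER2: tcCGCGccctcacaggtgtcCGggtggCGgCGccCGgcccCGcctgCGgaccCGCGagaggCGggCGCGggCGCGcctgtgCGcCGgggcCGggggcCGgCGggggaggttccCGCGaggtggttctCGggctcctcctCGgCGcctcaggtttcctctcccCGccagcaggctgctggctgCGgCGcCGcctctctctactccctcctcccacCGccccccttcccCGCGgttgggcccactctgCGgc
CYB5R2: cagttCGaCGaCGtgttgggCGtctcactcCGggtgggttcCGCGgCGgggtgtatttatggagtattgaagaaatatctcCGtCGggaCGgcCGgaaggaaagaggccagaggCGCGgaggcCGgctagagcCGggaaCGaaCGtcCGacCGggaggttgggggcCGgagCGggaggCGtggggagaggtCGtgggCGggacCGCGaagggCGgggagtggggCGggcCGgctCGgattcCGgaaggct
ZSCAN18: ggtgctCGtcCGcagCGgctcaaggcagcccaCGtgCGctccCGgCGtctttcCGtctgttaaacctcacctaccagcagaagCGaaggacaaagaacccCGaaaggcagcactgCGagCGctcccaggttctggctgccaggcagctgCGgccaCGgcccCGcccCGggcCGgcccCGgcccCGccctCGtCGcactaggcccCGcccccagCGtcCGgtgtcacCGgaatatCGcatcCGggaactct

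On the lower side no gene passed the test. The 15 genes described here were chosen as those of smallest p that separated the classes with a GCB-type mean above the median gene, and they had limma adjusted p-values from 0.0899 to 0.461. GTSF1, a factor of the germline piRNA pathway, read 5.42 in RIVA and 3.57 in U2932, against 9.66 in FARAGE, 11.78 in NU-DHL-1, 10.30 in OCI-Ly7 and 11.12 in SU-DHL-5. The difference was -6.22 ± 0.77 (adjusted p = 0.110), and the classes were 4.24 apart at their nearest lines. MAML3, a coactivator of Notch that belongs to published GCB gene sets, read 2.73 in RIVA and 2.89 in U2932 and between 6.48 and 8.45 in the GCB-type lines (difference -4.76 ± 0.57, limma adjusted p = 0.107). Both ABC-type lines were at the low end of the array's range for MAML3. Of its 3 probe sets, 2 had this direction and only 1 kept the lines of the classes apart.

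TTC9 read 4.93 and 5.15 in the ABC-type lines and between 7.16 and 7.98 in the others (-2.45 ± 0.28). APOBEC3B, a DNA cytidine deaminase, read 3.23 in RIVA and 2.75 in U2932 and between 6.18 and 7.44 in the GCB-type lines (-3.82 ± 0.47, limma adjusted p = 0.110). SPRED1, an inhibitor of Ras signalling, differed by -3.81, GNG7, a G-protein gamma subunit, by -2.35, and IMPDH2, an enzyme of guanine nucleotide synthesis, by -1.28. For GNG7 only 2 of 3 probe sets were lower in the ABC-type lines. The other genes of this set were ZNF57, ZNF318, TRIM13, ZNF558, SASH3, PPP1R16B, PTK2B and TMC8, with differences from -3.03 to -1.32. With arrays scaled to the poly-A controls, limma called TTC9 (adjusted p = 0.0405), ZNF57 (0.0405) and MAML3 (0.0273), and with 2 h arrays alone it called APOBEC3B (0.0300). SASH3 is a signalling adaptor of lymphocytes and PTK2B a kinase related to focal adhesion kinase.

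A count that uses no test was made beside these, since 2 lines against 4 leave little power: an exact permutation test over 15 arrangements of the lines cannot give a p below 0.0667. A gene was counted as separating the classes when the lines did not overlap and the class means differed by at least 2-fold. Of all genes tested, 425 separated the classes in the higher direction (2.15%) and 252 in the lower (1.27%). Among the 10233 genes whose higher class mean exceeded the median gene, the shares were 3.69% and 2.13%. These shares are the background for the counts of members below. The excess on the higher side depends on the 2-fold limit. Without it, the lines did not overlap for 1064 genes in the higher direction and 2039 in the lower. The median absolute differences of these genes were 0.83 and 0.28.

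Lines of the GCB type differed from each other about as much as from lines of the ABC type. RIVA and U2932 differed from each other at 2-fold or more in 2645 genes, with a standard deviation (SD) of the log2 difference over genes of 0.878. The 8 pairs of an ABC-type and a GCB-type line had SDs from 0.929 to 1.07, with 2601 to 3359 genes at 2-fold. The 6 pairs of GCB-type lines had SDs from 0.843 (OCI-Ly7 and SU-DHL-5) to 1.06 (FARAGE and NU-DHL-1), with 2027 to 3033 genes at 2-fold. The median SD was 0.964 for pairs between the classes and 1.02 for pairs of GCB-type lines. Arrays of 1 line were far closer, with SDs from 0.167 to 0.266.

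The genes by which the ABC type is usually recognised gave a mixed picture. Of 28 measured ABC-type markers, 6 separated the classes by at least 2-fold in the higher direction and 0 in the lower. The median difference was 1.14, against -0.06 over all genes. The median level of the list did not separate the classes. It was highest in RIVA (9.50), but U2932 (8.39) lay between FARAGE (8.41) and NU-DHL-1 (8.27). OCI-Ly7 (7.02) and SU-DHL-5 (5.999) were lower. IRF4, the transcription factor of activated B cells and plasma cells, read 11.89 in RIVA and 11.01 in U2932. It read 10.64 in OCI-Ly7, 9.33 in FARAGE, 8.81 in NU-DHL-1 and 5.10 in SU-DHL-5. U2932 was only 0.37 above OCI-Ly7, and at 12 h OCI-Ly7 (11.08) was slightly above U2932. The class difference of IRF4, 2.98 ± 1.51, did not pass the test (limma adjusted p = 0.865), and 2 of its 3 probe sets had this direction.

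FOXP1, a forkhead factor strongly expressed in the ABC type, read 11.93 and 10.81 in RIVA and U2932. SU-DHL-5 followed closely at 10.59, NU-DHL-1 read 10.17, OCI-Ly7 9.90 and FARAGE 4.67. PIM1, a serine/threonine kinase induced by JAK-STAT signalling, read 10.43 and 8.85 against at most 8.29 (2.16 ± 0.64), and its relative PIM2 read 9.55 and 9.98 against at most 9.14. The endoplasmic reticulum stress factor CREB3L2 read 10.25 and 9.70 against at most 9.38.

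Other ABC-type markers overlapped between the classes. BATF, an AP-1 factor, read 10.73 and 9.23 in the ABC-type lines, but 10.20 in FARAGE. SPIB, an ETS factor, read 11.55 in RIVA, 10.07 in U2932 and 10.11 in NU-DHL-1. The ectonucleotidase ENTPD1 was highest in FARAGE (10.45), and the adhesion receptor CD44 in NU-DHL-1 (11.45) and FARAGE (10.10), with RIVA at 9.53 and U2932 at 9.44. CCND2, cyclin D2, was dim in every line, between 3.36 and 4.29.

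**Figure D2:**
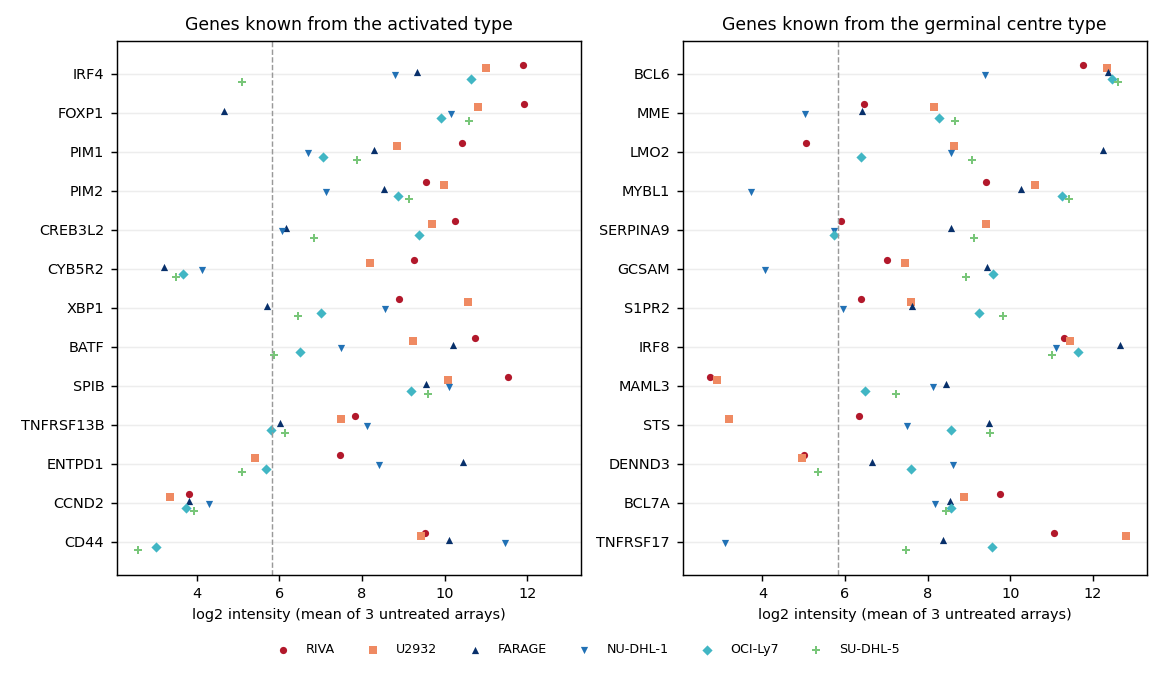
Mean log2 intensity in each of the 6 lines (symbols) for 13 genes known from the ABC type (left) and 13 known from the GCB type (right); the dashed line is the median gene at 5.83. CYB5R2 and MAML3 split into 2 groups along the class, while BCL6, MME, MYBL1 and CD44 do not.

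Most genes of the GCB type did not follow the class either. Of 30 measured GCB-type markers, 3 separated the classes in the lower direction (10%), and 1 in the higher direction. The median difference was -0.39. The 3 were MAML3, the steroid sulfatase STS (6.33 and 3.20 against 7.49 to 9.52) and DENND3, a Rab exchange factor (5.00 and 4.96 against 5.33 to 8.61); DENND3 was named after its values were seen. TNFRSF17, the BCMA receptor of plasma cells that also appears in GCB gene sets, ran the other way, at 11.07 in RIVA and 12.79 in U2932 against 3.09 to 9.55. BCL7A was likewise higher in the ABC-type lines (0.89 ± 0.32, limma adjusted p = 0.837).

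BCL6, the master repressor of the germinal centre, read 11.77 in RIVA and 12.33 in U2932. FARAGE read 12.36, OCI-Ly7 12.47 and SU-DHL-5 12.60, and NU-DHL-1 was lowest at 9.38. MYBL1 (9.40 and 10.60 in the ABC-type lines) was likewise far lower in NU-DHL-1, at 3.72, than in the 3 other GCB-type lines, at 10.25 to 11.42. The same line was lowest for GCSAM, a germinal centre signalling protein, at 4.07 against 8.94 to 9.57.

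MME, which encodes CD10, read 8.16 in U2932 and 6.46 in RIVA, both inside the GCB-type range of 5.04 to 8.66. U2932 had the highest SERPINA9 of all 6 lines, 9.42, and RIVA read 5.90. LMO2, a transcriptional adaptor used to mark the GCB type, ran from 5.05 in RIVA to 12.23 in FARAGE, with OCI-Ly7 (6.38) below U2932 (8.65). For S1PR2, a receptor that keeps B cells inside the germinal centre, RIVA (6.40) and U2932 (7.58) lay within the GCB-type range of 5.94 to 9.81. IRF8 was high in all lines, at 11.01 to 12.64.

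Of 20 measured genes of the plasma cell programme 5 separated the classes upward (25%) and 0 downward, and the median difference was 1.12. They were XBP1, the factor that expands the secretory apparatus, SEC11C, a signal peptidase subunit, and IRF4, TNFRSF17 and CREB3L2, which were described above. XBP1 read 8.90 in RIVA and 10.56 in U2932, against 8.55 in NU-DHL-1, 7.01 in OCI-Ly7, 6.45 in SU-DHL-5 and 5.71 in FARAGE. PRDM1, which encodes BLIMP1, the repressor that ends the B-cell programme, was at about the level of the median gene in every line (5.73 to 6.30) with a class difference of 0.02 ± 0.23. That difference turned negative with 0 h arrays alone (-0.08) and with arrays scaled to the poly-A controls (-0.01). None of these members passed the test.

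**Figure D3:**
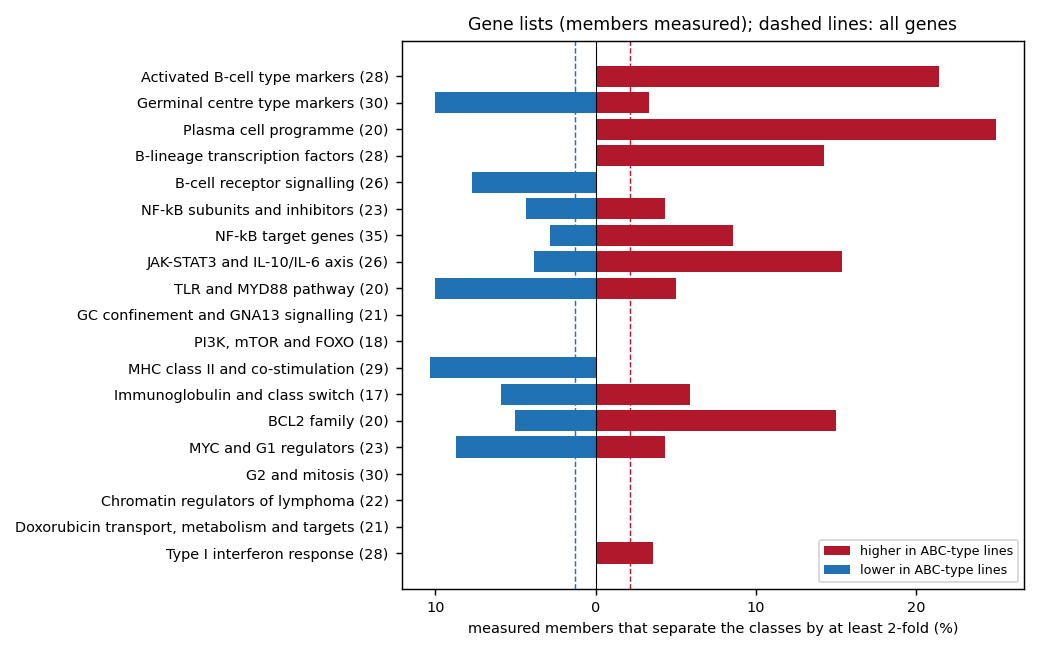
Share of the measured members of each of 19 gene lists that separated the classes by at least 2-fold, higher in ABC-type lines to the right and lower to the left, with the number of measured members in parentheses. Dashed lines mark the shares over all genes, 2.15% and 1.27%. The plasma cell list reaches 25% and the ABC-type marker list 21.4% on the right, and 5 lists have no bar.

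Among 28 measured transcription factors of the B lineage, 4 separated upward (14.3%) and 0 downward: IRF4, FOXP1, TCF4 and ID2. TCF4, an E protein of B-cell development, read 13.43 in RIVA and 13.31 in U2932. The GCB-type lines read 11.33 in SU-DHL-5, 11.08 in FARAGE, 10.37 in OCI-Ly7 and 10.27 in NU-DHL-1. TCF4 had the smallest p of this list (2.61 ± 0.35, limma adjusted p = 0.136), and all 8 of its probe sets differed in the same direction. ID2, an inhibitor of E proteins, read 12.25 and 11.71 against at most 10.76, and NU-DHL-1 was lowest at 5.96. The E protein TCF3 was slightly lower in the ABC-type lines (-0.65 ± 0.26), as was the ETS factor SPI1 (-0.76 ± 0.22).

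The signalling genes upstream of NF-kB that separated the classes were few in number, but their downward shares exceeded that of all genes. Of 26 measured genes of B-cell receptor signalling, 0 separated upward and 2 downward (7.69%, against 1.27% of all genes). The median difference of this list was -0.31. Both encode brakes on the receptor: the lectin CD22 read 9.22 and 9.14 against 9.72 to 10.76, and the phosphatase PTPN6 read 8.49 and 6.62 against 8.81 to 12.02. VAV1, an exchange factor below the receptor, was 0.85 lower. Of 20 measured genes of the Toll-like receptor and MYD88 pathway, TLR2 separated upward (5%), and IRAK2 and the receptor-like CD180 downward (10%). The nearest lines of the classes were only 0.29 apart for TLR2 and 0.15 for IRAK2. IRAK2 read 4.58 in RIVA, 4.67 in U2932 and 4.81 in SU-DHL-5, and 7.01 to 9.28 in the other GCB-type lines. CD180 read 6.86 in RIVA and 5.34 in U2932 against 8.49 to 10.12. MYD88 itself overlapped, between 10.01 and 11.36 in the ABC-type lines and 10.19 and 10.62 in the others.

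The NF-kB subunit genes overlapped between the classes. NFKB1 read 9.47 and 9.43 in the ABC-type lines and 8.57 to 10.17 in the others, and REL read 11.30 and 10.60 against 7.72 to 10.83. Of 23 subunits and inhibitors, the nuclear IkB protein NFKBID separated upward (9.37 and 8.30 against at most 7.33), and TNIP2, an inhibitor of the pathway, downward (7.73 and 7.63 against at least 8.22). NFKBIZ, a nuclear IkB protein mutated in ABC-type tumours, was highest in RIVA at 12.29, but U2932 (10.22) and FARAGE (10.28) overlapped. The kinase gene IKBKE was higher by 0.88 ± 0.25 and MAP3K14, which encodes the kinase NIK, differed by -0.76 ± 0.27.

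Of 35 measured NF-kB target genes 3 separated the classes upward (8.57%) and 1 downward (2.86%), 20 had a positive difference, and the median difference was 0.64. The median level of the list was highest in FARAGE (9.01), with 7.97 in RIVA and 8.73 in U2932. The chemokine gene CCL4 read 8.30 in RIVA and 7.62 in U2932 against 4.00 to 6.02 (2.92 ± 0.62, limma adjusted p = 0.506). CD83, an activation marker, read 11.30 and 11.75 in the ABC-type lines and 10.84 in FARAGE, while the other GCB-type lines lay between 8.21 and 8.28. IER3, a stress-response gene, read 8.20 and 6.87 against at most 6.41. BCL2A1, an anti-apoptotic target, had the same outline: 11.05 and 12.33 in RIVA and U2932, 12.32 in FARAGE and 3.35 to 7.03 in the others. FARAGE thus resembled the ABC-type lines for CD83 and BCL2A1. The glucose transporter gene SLC2A3 ran the other way, at 3.58 and 6.10 against 6.97 to 9.26.

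Of 26 measured genes of the JAK-STAT3 axis, through which IL-6 and IL-10 act, 4 separated upward (15.4%) and 1 downward (3.85%). In this list 9 had a positive difference, and the median difference was -0.11. IL6R read 6.31 in RIVA and 5.02 in U2932 against 3.68 to 3.87 (1.92 ± 0.34, limma adjusted p = 0.396). For IL6R the SD was 0.91 between the 2 ABC-type lines and 0.08 among the GCB-type lines, all of which were dim. A fit that leaves out RIVA or U2932 cannot estimate the spread between them, and no conclusion on IL6R is drawn from it. IL10RA read 10.21 and 10.77 against at most 9.89. The remaining ones were PIM1 and the phosphatase gene PTPN2 (1.00 ± 0.29), while JAK3 read 6.47 and 6.60 against at least 7.55. STAT3 itself overlapped, and its highest value was 10.64 in SU-DHL-5. No member of the JAK-STAT3 or NF-kB target list was called.

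In the BCL2 family, which sets the threshold of mitochondrial cell death, the classes differed at single genes. Of 20 measured members 3 separated upward (15%) and 1 downward (5%), with a median difference of 0.44. BCL2, the anti-apoptotic protein of mitochondria, read 12.76 in RIVA and 12.38 in U2932, against 10.21 in NU-DHL-1, 9.46 in FARAGE, 4.86 in SU-DHL-5 and 3.25 in OCI-Ly7. The difference of 5.63 was larger than that of most called genes, but with a standard error of 2.14 it did not pass the test (limma adjusted p = 0.865). The GCB-type lines were themselves split into a pair with high and a pair with low BCL2. PMAIP1, the pro-apoptotic NOXA, read 13.27 and 13.57 against at most 11.75 (2.82 ± 0.57), and HRK, another BH3-only protein, read 8.28 and 6.76 against at most 6.51. BCL2L2 was lower in the ABC-type lines (-1.63 ± 0.40).

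Of 23 measured genes of the MYC and G1 list, 1 separated the classes upward (4.35%) and 2 downward (8.70%). The median difference was -0.008. CCND3, cyclin D3, read 8.17 in RIVA and 8.99 in U2932 against 10.04 to 11.34 (-2.39 ± 0.47, limma adjusted p = 0.468). RB1, the retinoblastoma repressor, read 7.08 and 8.18 against 9.55 to 11.35 (-2.98 ± 0.59), although only 1 of its 2 probe sets had this direction. CDKN2A, which encodes the inhibitor p16, read 10.25 and 10.70 against 5.56 to 9.52. MYC overlapped between the classes, with the lowest value, 7.998, in U2932. In the list of 30 G2 and mitosis genes, 0 separated the classes and the median difference was -0.10.

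Antigen presentation was the list with the lowest median, -0.60. Of 29 measured genes of MHC class II and co-stimulation, 0 separated upward and 3 downward (10.3%). CD70, a co-stimulatory ligand, read 8.09 in RIVA and 9.52 in U2932 against 10.19 to 11.26 (-1.99 ± 0.49). TNFRSF14, which encodes HVEM, read 5.09 and 5.59 against 5.85 to 7.83, and HLA-DMA, a peptide-loading chaperone, read 9.48 and 10.06 against 10.59 to 12.27. TNFSF9 was also lower (-0.99 ± 0.37). Without RIVA the median of the list was 0.01. Among 17 immunoglobulin and class switch genes, IGKC separated upward by a margin of 0.12 and IGHD downward (5.01 and 6.10 against 6.93 to 9.30), while IGHM overlapped.

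The remaining lists had few or no members that separated the classes. No member did in the lists of germinal centre confinement (21 measured, median -0.52), PI3K, mTOR and FOXO (18), chromatin regulators (22) and doxorubicin transport, metabolism and targets (21). RAC2 (-0.88 ± 0.27) and P2RY8 (-1.19 ± 0.48), of the confinement list, had lower means in the ABC-type lines. EZH2, the histone methyltransferase of germinal centre cells, was 0.93 ± 0.34 higher, and HDAC1 was 0.68 lower. TOP2A, the enzyme that doxorubicin traps, overlapped between the classes (10.69 to 11.97), and ABCB1, the drug efflux pump, was dim in 5 lines and highest in NU-DHL-1 at 5.32, still below the median gene. In the interferon list of 28, MX2 separated upward (10.01 and 8.76 against at most 7.32).

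A pattern not covered by the lists was found when the separating genes were arranged by chromosome, a view chosen after the values were seen. Of 303 genes tested on chromosome 18, 49 separated the classes in the higher direction (16.2%, against 2.15% of all genes) and 0 in the lower. The other autosomes held between 0.386% (chromosome 10) and 5.24% (chromosome 13). BCL2, PMAIP1, TCF4, SEC11C and PTPN2, described above, are all on chromosome 18, and so are 3 called genes, GAREM1, TUBB6 and SALL3. Without SU-DHL-5 the limma adjusted p of both GAREM1 and SALL3 was 0.0738. Among genes above the median level, 47 of 147 on chromosome 18 separated upward (32%). A gene can pass that filter through the class in which it is high, and over all 303 genes of the chromosome the median difference was 0.04.

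The separating genes of chromosome 18 lay close together. When its 147 genes above the median level were taken in consecutive blocks of 20, in the gene order of RefSeq GRCh38.p14, the block from MBD2 to TNFRSF11A held 13 that separated. Its median difference was 2.48, and the median was 1.98 in RIVA and 2.61 in U2932, each against the mean of the GCB-type lines. This block includes TCF4, SEC11C and PMAIP1, and also genes of general cell functions, such as the secretory cargo receptor LMAN1 (12.72 and 13.91 against at most 10.95) and the asparaginyl-tRNA synthetase NARS1 (13.45 and 13.46 against at most 12.11). The block from GAREM1 to HAUS1 held 12 and the block from ST8SIA5 to MEX3C held 9, among them SMAD4.

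The block from ACTBP9 to ATP9B, which follows TNFRSF11A, held 6. Of these, 5 stand next to each other after ACTBP9 in the order of genes above the median level. They are ZCCHC2 (2.90), the phosphatase PHLPP1 (3.42), BCL2 (5.63), the sphingolipid enzyme KDSR (2.89) and VPS4B of the ESCRT machinery (2.70), with class differences in parentheses. For PHLPP1 only 1 of 2 probe sets had this direction. KDSR read 11.51 in RIVA and 11.72 in U2932 against at most 9.87, and VPS4B 12.00 and 12.08 against at most 10.13. The next gene above the median level after VPS4B was the thioredoxin-like TMX3. It is not adjacent: VPS4B ends at base 63422476 of the chromosome and TMX3 starts at 68673688. TMX3 differed between the ABC-type lines: against the GCB-type mean it was 0.47 in RIVA and -6.03 in U2932. The sixth separating gene of the block was SALL3.

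Towards the ends of the chromosome fewer genes separated than in the blocks described above. The 3 blocks from USP14 to RNF138 held 2, 3 and 2 separating genes of 20 each. Each of these shares was still above the 3.69% of all genes above the median level. The last 7 genes, from NFATC1 on, held 0 with a median of -0.50. The lines also differed: in the block from ST8SIA5 to MEX3C the median was 1.38 in RIVA and 0.44 in U2932, and the high CDH2 of U2932 (10.72) was matched by 4.42 in RIVA. Copy number was not measured, and its part in these differences was not tested. In the arrays of cells given 0.00061 µg/mL of doxorubicin, 48 genes of chromosome 18 separated in the same direction, and 47 of the 49 were among them.

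**Figure D4:**
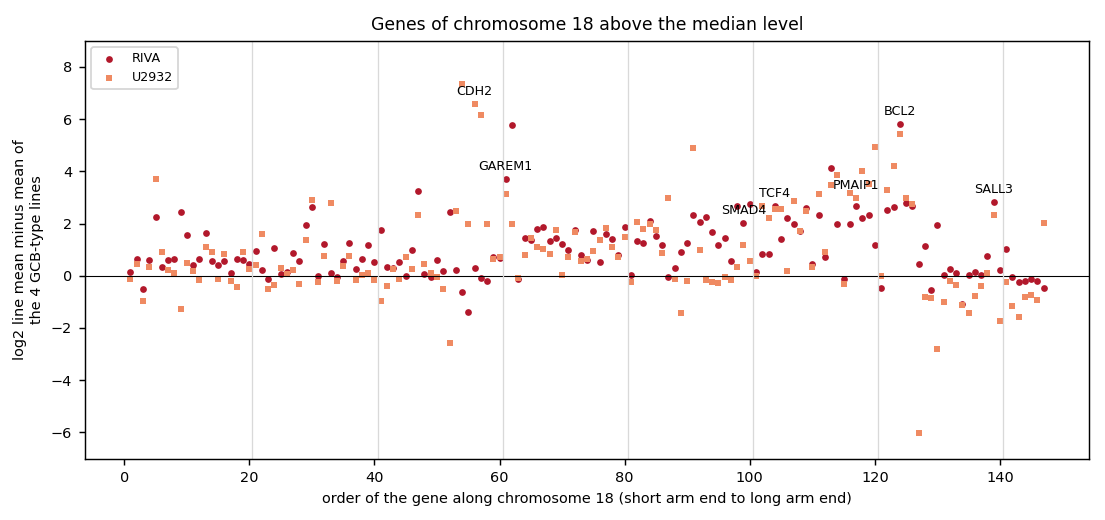
Log2 mean of RIVA (circles) and U2932 (squares) minus the mean of the 4 GCB-type lines for the 147 genes of chromosome 18 above the median level, in their order along the chromosome; grey lines mark blocks of 20 genes. Between GAREM1 and BCL2 most points of both lines lie above 0, and after SALL3 most lie below.

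No change of the class difference with the hour of harvest was detected. No gene was called for a change of the class difference between 0 and 12 h (0% of 19775 in limma, smallest adjusted p = 0.973), with 829 genes at an unadjusted p below 0.05. Between 0 and 2 h no gene was called either, with 1191 genes at that p. The SD over genes of this change was 0.188, against 0.645 for the class difference itself. All 29 called genes were higher in the ABC-type mean at each of 0, 2 and 12 h. The smallest p of the 12 h comparison belonged to LMO2, which went from 5.44 to 4.66 in RIVA and from 8.77 to 8.30 in U2932 and was 0.17 higher on average in the GCB-type lines.

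The differences of the called genes were also present in arrays that the comparison had not used. In 12 arrays of the same lines given 0.00061 µg/mL of doxorubicin for 2 or 12 h, limma called 30 genes, all higher in ABC-type lines, of which 27 were among the 29. All 29 genes separated the lines again, as did all 15 of the genes on the lower side. The untreated arrays at 48 h exist for RIVA, U2932 and OCI-Ly7. There each of the 29 genes was higher in both RIVA and U2932 than in OCI-Ly7, by 0.70 to 5.45. Of the 6 separating ABC-type markers, CYB5R2 alone separated these lines at 48 h. OCI-Ly7 was above both ABC-type lines in CREB3L2 (10.46 against 10.18 in RIVA and 9.92 in U2932) and PIM2 (10.29 against 10.07 and 9.89). It was above U2932 in IRF4 (10.98 against 10.94), PIM1 (9.07 against 8.54) and FOXP1 (11.11 against 10.69). TNFRSF17 did not separate the lines either, at 11.85 in OCI-Ly7 and 10.97 in RIVA, nor did IMPDH2, at 11.22 in OCI-Ly7 and 11.53 in U2932. These arrays come from the same lines and so repeat the measurement without adding tumours.

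**Figure D5:**
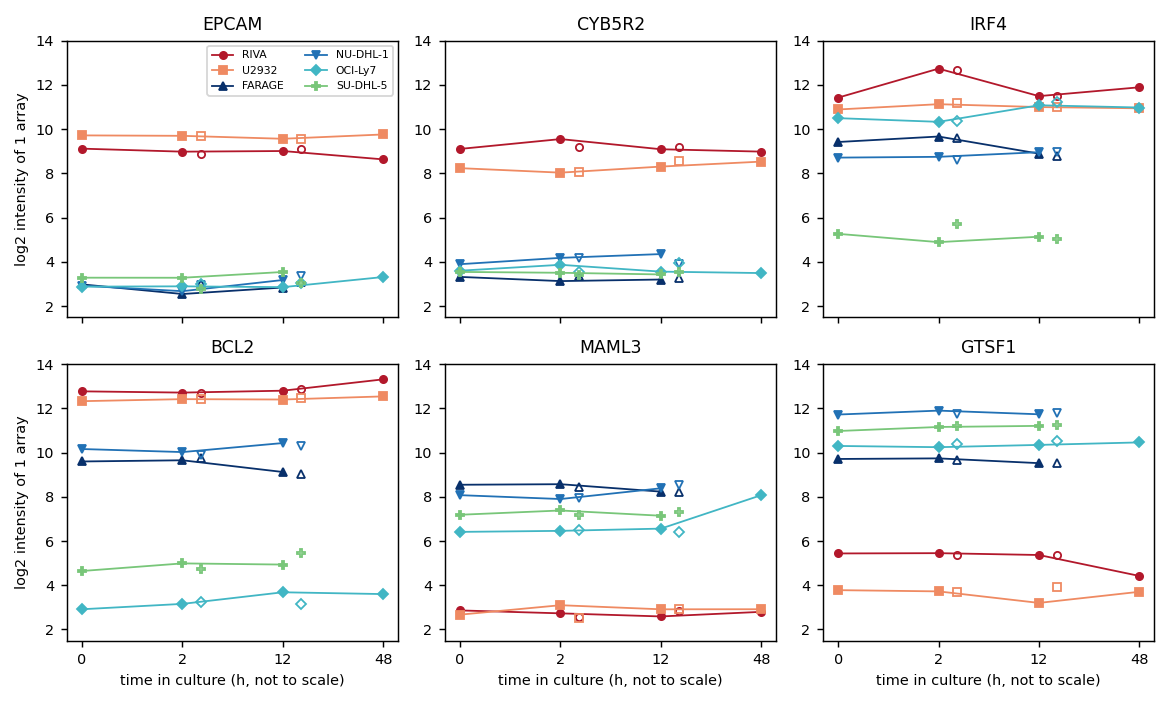
Log2 intensity of single arrays of 6 genes at 0, 2, 12 and 48 h. Filled symbols joined by lines are untreated cells, open symbols are cells given 0.00061 µg/mL of doxorubicin for 2 or 12 h, and colours and symbols mark the 6 lines. EPCAM, CYB5R2, MAML3 and GTSF1 stay apart by class at each time, whereas for IRF4 OCI-Ly7 meets U2932 at 12 and 48 h.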

How the data were processed

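The deposited values are log2 intensities that the authors made with RMA; the submitters' processing notes name affy and R 3.0.2. RMA corrects background, normalizes arrays by quantiles and summarises probes per probe set. Quantile normalization makes every difference relative to the bulk of genes. A probe set was used if the platform annotation gave it 1 gene (41097 of 54675; 1801 listed several genes and 11777 none), and the brightest one stood for a gene, which left 19775 genes. Symbols were updated to RefSeq GRCh38.p14 by gene identifier. From these values the mean of the 3 untreated arrays of each line was computed and fitted with limma 3.58.1 in R 4.3.3 (moderated variance with trend, 4 residual degrees of freedom, Benjamini-Hochberg adjustment, threshold 0.05), and ± is limma's standard error. The fit was also run on simulated line means with normal noise and the same SD in both classes. That run does not show how the fit behaves for genes dim and close together in 1 class only.

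The lists hold 493 entries, of which 462 were measured; the others were not analysed here. Genes named are the 15 largest called differences, the 15 separating genes of smallest p on the lower side, up to 6 members of smallest p per list, single genes of interest and, chosen after their values were seen, DENND3 and genes of chromosome 18. The members and lists were chosen with earlier results of these data known. Alternatives changed the variance trend, the arrays, the probe set rule, the filter and the scaling, and left out each line. Arrays give no counts, so that their number limits the precision.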

Additional observations from a re-analysis of the deposited data

Results flagged for a closer look

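Among the 4 GCB-type lines, 1 line stood far from the others for 12 of the 119 genes named, by Dixon's test at its 95% level, which chance alone would flag in about 1 of 20 groups. In 7 of them it was NU-DHL-1. That line was low for BCL6 (9.38, nearest other line 12.36), MYBL1 (3.72, nearest 10.25), GCSAM (4.07, nearest 8.94), ID2 (5.96, nearest 10.13) and CCND3 (10.04, nearest 11.19), and high for TNFRSF13B, the TACI receptor (8.12, nearest 6.13), and ABCB1 (5.32, nearest 3.02). FARAGE was low for FOXP1 (4.67, nearest 9.90) and high for CD83 (10.84, nearest 8.28). OCI-Ly7 was high for TUBB2B (4.54, nearest 3.58) and HRK (6.51, nearest 4.62), and low for LMAN1 (10.16, nearest 10.84).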

How the results depend on the processing

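The main limit is the number of lines. With 18 arrays and the line as a random block, limma called 577 genes (365 higher, 212 lower) in place of 29, and 28 of the 29 were among them; that fit counts arrays of a line towards its precision. The count of genes lower in ABC-type lines, 0 in the main comparison, was 1 with 2 h arrays only and 3 with arrays scaled to poly-A controls. Leaving out each line gave 14 to 150 called genes, 13 to 145 higher and 0 to 5 lower; without an ABC-type line the remaining one is assumed to vary like the others. Under the other alternatives (no variance trend, single times, 48 h arrays added, low-dose arrays, mean over probe sets, genes above the median level, median centring, poly-A scaling) 22 to 34 genes were called. No gene was called for a change with time under any alternative.

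Over 119 named genes and 17 alternatives, 1892 of 2019 values kept their direction and side of the threshold, 41 lost the call, 64 gained it and 22 turned direction, in 10 genes that were not called. These were SERPINA9 with low-dose arrays (-0.0044), PRDM1 with 0 h (-0.076), low-dose (-0.068) and poly-A scaled (-0.015) arrays, and MME as the mean over probe sets (-0.021). With each line left out in turn, the differences ran from -2.003 to 0.0625 in ENTPD1, -6.03 to 0.47 in TMX3, -0.37 to 0.98 in MYD88, -0.97 to 1.59 in MYBL1, -0.43 to 0.11 in IRF8, -0.26 to 0.31 in PRDM1, -1.38 to 2.14 in SERPINA9, -0.43 to 0.64 in BCL6, -0.76 to 0.32 in ABCB1 and -0.63 to 1.07 in MME. List medians moved by more than 1 SD between lines in 8 of 323 cases, 7 of them with a line left out. No paired analysis was possible because the classes hold different lines, whose numbers only name them. Chromosome 18 held 44 separating genes with means over probe sets, an alternative chosen after seeing the data. Levels near the bottom of the array's range bound the size of the called differences. They can also narrow the spread among the GCB-type lines, on which the test mainly rests.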
